A study of Mus musculus with 23 samples.

Results

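Slc12a2, Slc12a5, Atp1b1 and Atp1b2 encode a chloride importer, a chloride exporter and 2 subunits of the sodium pump. They were followed in the prefrontal cortex of male C57BL/6 mice at postnatal weeks 2, 3, 4, 5 and 10, with 6, 4, 4, 5 and 4 animals. All probe sets carrying 1 of these 4 gene symbols alone were taken, which gave 12 of the 22690 probe sets on the Affymetrix array, of which 11 passed the filter for testing, a log2 value of at least 4 on at least 4 arrays. For each gene the lead probe set was the one with the highest mean over all 23 arrays. The mice were untreated wild types bred from purchased breeders, each array was labelled as 1 animal (week 5 animal 2 occurs in both batches and was counted as 2), and the tissue was everything in front of a coronal cut near the frontal pole. The labels gave batch 2 for 2 animals of week 2 and 2 of week 5, and batch 1 for the other 19.

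Age and scan day were largely confounded, which bears on every value that follows. The arrays were scanned on 7 days. Day 6 was given over to the 4 week 3 arrays, and day 5 held the 4 week 4 arrays with 1 array of week 5. Weeks 10 and 2 shared day 4 alone, with 1 array each. The beta-actin 3 prime signal minus the 5 prime signal (log2), which grows when long transcripts are copied incompletely, averaged 1.28, 1.18, 2.07, 1.42 and 1.56 at weeks 2, 3, 4, 5 and 10. It was highest at week 4. Cell type markers were looked at: all 6 neuron, all 8 astrocyte and all 6 microglia markers passed the filter, as did 2 of the 4 choroid plexus markers on the array. Of all 12393 genes, 9198 had a probe set that passed, so passing the filter is a weak check of the tissue. All 4 striatal markers on the array also passed, and their mean log2 level differed widely between animals of 1 age, lying at 8.25 to 9.97 at week 2, 9.43 to 10.15 at week 3, 9.13 to 10.16 at week 4, 6.59 to 10.08 at week 5 and 8.23 to 10.18 at week 10. The part of striatal tissue in the results was not tested. In bulk tissue, fewer cells of a type and less RNA per cell cannot be told apart.

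GABA opens chloride channels, and the direction in which chloride then flows depends on how much of it the neuron holds. Slc12a2 (NKCC1) brings chloride in together with sodium and potassium, and Slc12a5 (KCC2), which is largely restricted to neurons, carries chloride out together with potassium. In rodent cortex the exporter increases after birth while GABA turns from depolarising to hyperpolarising. Both cotransporters run on the ion gradients kept by the sodium pump, whose catalytic alpha subunit needs a glycosylated beta subunit to fold and reach the membrane. Atp1b1 encodes the beta1 subunit, abundant in neurons, and Atp1b2 the beta2 subunit, also known as an adhesion molecule on glia.

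In the mouse build GRCm38.p6, all 4 are protein-coding genes. Slc12a5 spans chr2:164960846-164999731. Atp1b1 spans chr1:164437099-164458355, and Atp1b2 lies in the short interval chr11:69599728-69605978. RefSeq promoter windows of this build, 250 bases before to 50 after an annotated start, matched 2 of the 4 genes and are shown because transcription of the neuronal exporter and of the neuronal beta subunit begins there. Slc12a5 has 2 annotated starts, and how much each contributed to the signal was not measured. Each sequence is written 5′ to 3′ along the gene, with capitals marking matches on either strand to 4 promoter motifs, the E-box, GC box, CCAAT box and TATA box.
Slc12a5 upstream start, chr2:164960596-164960895, plus strand: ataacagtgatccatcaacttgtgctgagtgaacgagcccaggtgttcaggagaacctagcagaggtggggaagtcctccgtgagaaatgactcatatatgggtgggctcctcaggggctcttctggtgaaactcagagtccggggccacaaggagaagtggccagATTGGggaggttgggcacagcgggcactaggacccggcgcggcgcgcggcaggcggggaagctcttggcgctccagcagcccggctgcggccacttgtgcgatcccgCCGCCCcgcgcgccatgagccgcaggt
Slc12a5 downstream start, chr2:164967738-164968037, plus strand: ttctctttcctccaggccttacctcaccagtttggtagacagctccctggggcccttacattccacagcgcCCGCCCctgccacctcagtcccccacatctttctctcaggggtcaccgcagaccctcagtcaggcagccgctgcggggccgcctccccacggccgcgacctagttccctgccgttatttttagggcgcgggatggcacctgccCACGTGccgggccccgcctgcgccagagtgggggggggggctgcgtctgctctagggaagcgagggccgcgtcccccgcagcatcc
Atp1b1, chr1:164458306-164458605, minus strand: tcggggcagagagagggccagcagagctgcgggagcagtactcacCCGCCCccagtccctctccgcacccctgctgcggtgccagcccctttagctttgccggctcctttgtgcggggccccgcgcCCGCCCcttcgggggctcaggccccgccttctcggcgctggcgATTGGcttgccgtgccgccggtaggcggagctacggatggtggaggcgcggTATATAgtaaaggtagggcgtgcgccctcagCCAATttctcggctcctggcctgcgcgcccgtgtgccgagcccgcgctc

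The downstream Slc12a5 window held 1 E-box, whose letters are CACGTG on both strands and whose first base lay 36 bases before the start. E-boxes of these letters occurred in 7.15% of the 32851 promoter windows of that length. The Atp1b1 window held a TATA box 30 bases before the start. It was searched as TATANA and matched on both strands here, and 24.7% of all windows held a match. The Atp1b1 window also held 2 GC boxes, searched as GGGCGG, which occurred in 35.7% of all windows. Each Slc12a5 window held 1 GC box. The CCAAT box, found in 37.4% of all windows, had 2 matches in the Atp1b1 window and 1 in the upstream Slc12a5 window. No match of one motif overlapped that of another. G and C made up 63.7% of the upstream and 68.3% of the downstream Slc12a5 window, against a median of 52.7% over all windows. These are matches of letters, and the arrays measured no binding.

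The exporter Slc12a5 was higher at week 10 than at week 2. Its lead probe set, 1451674_at, read 12.58, 12.64, 12.72 and 12.81 (log2 signal) in the week 10 animals, against a lowest of 12.17, a median of 12.45 and a highest of 12.53 in the week 2 animals. The groups did not overlap, as was true of 14.7% of all tested probe sets (5.87% higher without overlap). The fitted log2 change, with batch as a term, was 0.24 (SE 0.071, 95% confidence interval 0.09 to 0.39), or 1.18-fold, with an adjusted p of 0.0222 (limma, Benjamini-Hochberg over all tested probe sets). In this comparison 17.1% of tested probe sets were called at an adjusted p under 0.05, 6.4% as higher and 10.7% as lower. Of the 11 probe sets of the 4 genes, 1 was called higher and 2 lower. On scan day 4, the single week 10 array read 12.81 and the single week 2 array 12.53.

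The means of the Slc12a5 lead probe set were 12.40 ± 0.13 at week 2, 12.58 ± 0.07 at week 3, 12.67 ± 0.09 at week 4, 12.66 ± 0.07 at week 5 and 12.69 ± 0.10 at week 10 (log2 signal, SD, n = 6, 4, 4, 5 and 4). Week 2 was the lowest age, and the means of weeks 4, 5 and 10 lay within the spread between animals of each. The 4 animals of week 3 read 12.51, 12.53, 12.62 and 12.66, so 1 of them lay below the highest week 2 animal. The 4 of week 4 read 12.59, 12.66, 12.66 and 12.79, and the 5 of week 5 read 12.59, 12.60, 12.66, 12.68 and 12.78. Neither step was called: week 3 against week 2 gave 0.14 (adjusted p 0.199), and week 4 against week 3 gave 0.09 (adjusted p 0.491), both by limma. The F-test for any difference among the ages gave an adjusted p of 0.0125, where 31.6% of all probe sets were called.

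The lowest Slc12a5 values, 12.17 and 12.31, were the batch 2 animals of week 2. Within batch 1 alone the week 10 minus week 2 change was 0.21 with a limma adjusted p of 0.0535, which misses the threshold. Week 5 minus week 2 was 0.40 within batch 2 (adjusted p 0.0133) and 0.20 within batch 1 (adjusted p 0.108), and the difference between the batches was not called (adjusted p 0.503, limma). Over all probe sets, 9.81% were called within batch 2, 9.33% within batch 1 and 1.53% for the difference between the batches. Leaving out week 10 animal 8 gave 0.20 with an adjusted p of 0.0807, and leaving out week 10 animal 7 gave 0.23 with an adjusted p of 0.0511. With a fixed term for each scan day, which left week 3 out, the change was 0.34 (adjusted p 0.0539, limma).

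**Figure D1:**
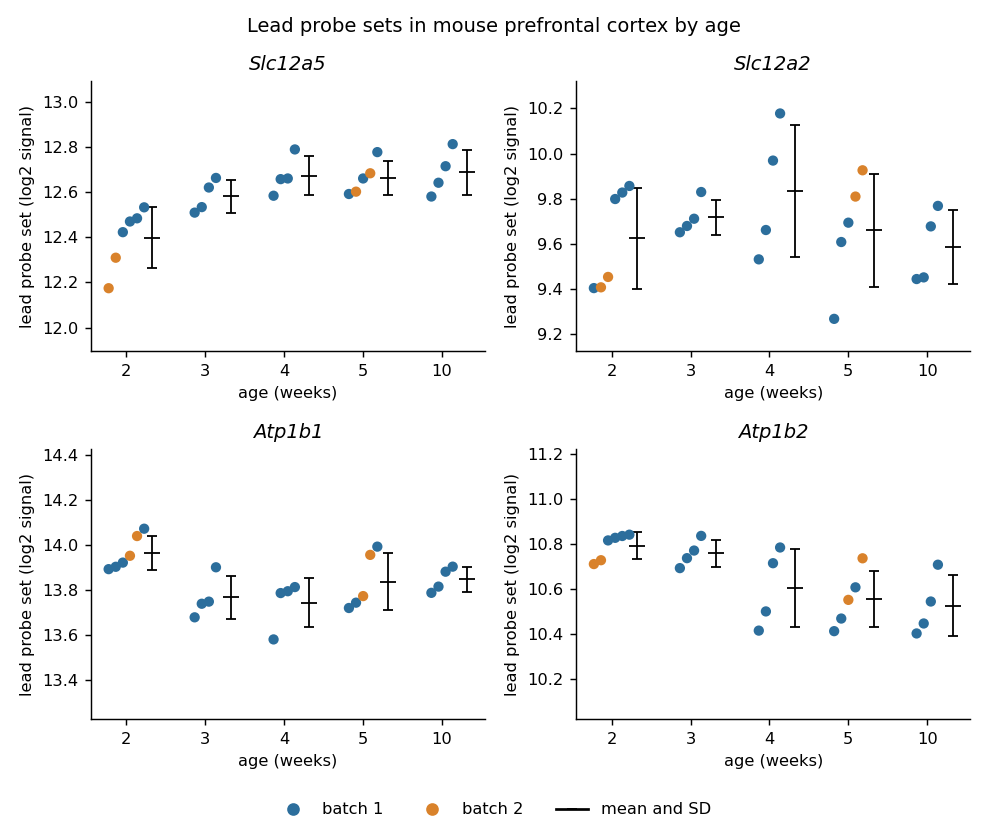
Lead probe set of each gene (y axis, log2 signal; every panel spans the same range) by age in weeks (x axis). Points are single arrays coloured by batch, and black bars give mean and SD. For Slc12a5 every week 10 array lies above every week 2 array, for Atp1b2 every week 10 array lies below, and for Slc12a2 and Atp1b1 the arrays of these ages overlap.

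The other Slc12a5 probe set, 1425337_at, was designed from the same expressed sequence and did not follow the lead. Its log2 signal was 6.15, 9.71, 9.79 and 9.83 in the week 10 animals, against a lowest of 8.98, a median of 9.71 and a highest of 10.04 in the week 2 animals. One week 10 array, animal 1, lay far below the other 3. This array and week 5 batch 1 animal 2, at 7.58, were the only arrays of scan day 1 and of their chip lot. The fitted change was -0.59 (95% confidence interval -1.87 to 0.68, limma adjusted p 0.549), and 0.20 without these 2 arrays. Across the 23 arrays the correlation of both Slc12a5 probe sets was -0.12 (Pearson, permutation p 0.579, adjusted p 0.708 over 11 such pairs), with a Spearman rho of -0.06 (adjusted p 0.883) and an r of 0.07 without the 2 arrays farthest from the median of the lead. The slope of 1425337_at on the actin difference, beside age and batch, was -2.57 log2 units per unit (SE 0.83, limma adjusted p 0.107), against 0.05 for the lead (SE 0.12, adjusted p 0.849). A slope on the actin difference was called for 1.51% of all probe sets.

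The importer Slc12a2, whose gene spans chr18:57878512-57946821 in GRCm38.p6, showed no called change at its lead probe set, 1417622_at. It read 9.44, 9.45, 9.68 and 9.77 (log2 signal) in the week 10 animals, against a lowest of 9.40, a median of 9.63 and a highest of 9.86 in the week 2 animals. The week 10 values lay wholly within the range of week 2. The fitted change was -0.04 (SE 0.146, 95% confidence interval -0.34 to 0.27, limma adjusted p 0.890), an interval that covers a fall to 0.790 times and a rise to 1.21 times the week 2 signal. Its means were 9.62 ± 0.22, 9.72 ± 0.08, 9.83 ± 0.29, 9.66 ± 0.25 and 9.58 ± 0.16 at weeks 2, 3, 4, 5 and 10 (SD). The highest and the lowest of these means differ by less than the SD of week 4, and the F-test over ages gave an adjusted p of 0.611.

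At every age but week 3 the Slc12a2 lead varied over a wider range among animals of 1 age than the means did among ages. At week 4 its lead read 9.53, 9.66, 9.97 and 10.18, and at week 5 it read 9.27, 9.61, 9.69, 9.81 and 9.93. At week 3 the animals lay close together, between 9.65 and 9.83. The change of week 5 against week 2 was 0.44 within batch 2 (adjusted p 0.164) and -0.20 within batch 1 (adjusted p 0.428), and the difference between the batches was not called (0.64, adjusted p 0.202, limma).

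The other Slc12a2 probe sets, 1448780_at and 1417623_at, gave another picture at week 3. At week 3 the log2 signal of 1448780_at was 7.65, 7.87, 7.90 and 8.03, against a lowest of 6.17, a median of 7.07 and a highest of 7.65 at week 2. The change was 1.17 (SE 0.25, adjusted p 0.00329), and for 1417623_at it was 1.36 (SE 0.34, adjusted p 0.00912, limma). In this comparison 16.0% of all tested probe sets were called, and 6.67% of all tested were called higher. Week 4 against week 3 gave -1.51 for 1448780_at (adjusted p 4.88e-04) and -1.71 for 1417623_at (adjusted p 0.00249), where 11.4% of all tested probe sets were called, and 6.55% of all tested were called lower. All week 4 values of both lay below all week 3 values, as in 9.0% of all tested probe sets.

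The scan days moved with these values. On day 6, which held week 3 alone, 1448780_at averaged 7.86, and on day 7, which held batch 2 arrays of weeks 2 and 5, it averaged 7.59, while the averages of the other days lay between 6.25 and 6.90. The week 5 array of day 7 read 7.74 for 1448780_at and 7.57 for 1417623_at, above every other week 5 array. For 1417623_at the batch 2 minus batch 1 difference was called (1.07, adjusted p 0.0487, limma), as it was for 5.1% of all probe sets. With scan day as a random effect, none of these 4 week 3 calls held (adjusted p 0.0521 to 0.292, limma). Replacing and beside batch, it cut the calls over all probe sets from 2570 to 112 and 597 for week 3 against week 2. For week 4 against week 3 it cut them from 1839 to 1 and 191. With days 6 and 7 as 1 term in the fit, the week 3 minus week 2 changes were 0.30 (adjusted p 0.544) and 0.21 (adjusted p 0.804), with 1158 calls over all probe sets. With the actin difference as a covariate the week 4 minus week 3 changes were -0.49 (adjusted p 0.735) and -0.51 (adjusted p 0.846), with 0 calls over all probe sets. The lost calls are thus not particular to Slc12a2. Age and scan day cannot be told apart for week 3. The pair of dimmer probe sets correlated with each other at r = 0.92 over the 23 arrays (permutation p 1e-05, the smallest the 100000 resamples can give, adjusted p 3.67e-05 over 11 pairs; Spearman rho 0.94, adjusted p 3.67e-05; r = 0.92 without the 2 farthest arrays). The lead had an r of -0.21 with 1448780_at (adjusted p 0.594) and of -0.17 with 1417623_at (adjusted p 0.594). Their Spearman rho was -0.19 in each case (adjusted p 0.608), and r without the 2 farthest arrays was -0.13 for both. The permutations took no account of age or scan day. All 3 Slc12a2 probe sets were designed from 1 expressed sequence.

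**Figure D2:**
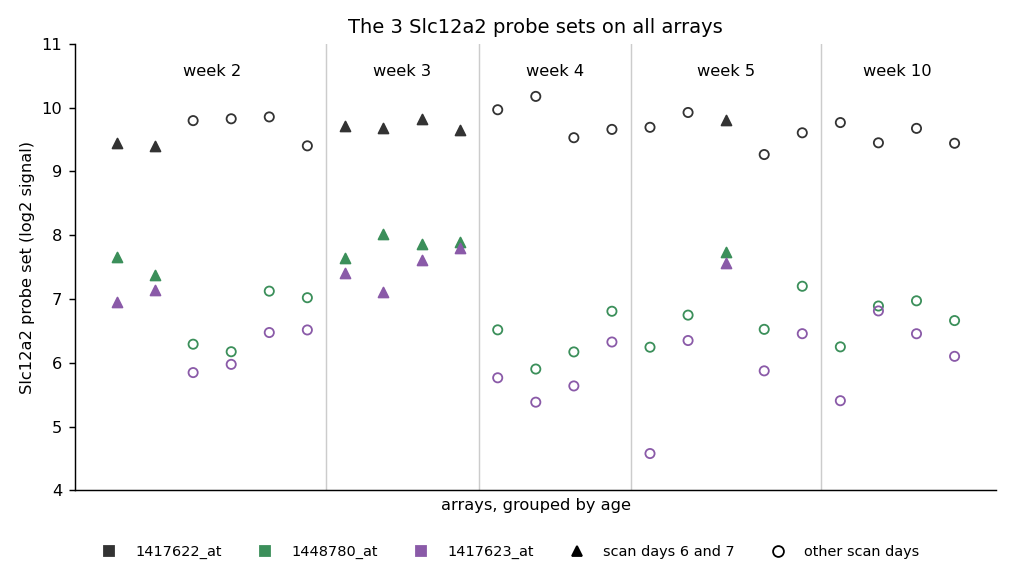
Log2 signal of the 3 Slc12a2 probe sets (y axis, colours) on the 23 arrays grouped by age (x axis). Triangles mark the arrays of scan days 6 and 7, circles all others; the pair of dimmer probe sets is high on the triangles, including the only triangle at week 5 (7.74 and 7.57), while the lead stays between 9.27 and 10.18.

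Exporter and importer were set against each other as the Slc12a5 minus Slc12a2 difference of the lead probe sets on each array. Since the tissue was bulk, this takes in transcripts of all its cells, and the balance within neurons was not measured. Probe sets bind with different strengths, so the size of this difference is no ratio of transcripts and only its change between ages can be read. The difference averaged 2.78 ± 0.21 at week 2, 2.87 ± 0.06 at week 3, 2.84 ± 0.33 at week 4, 3.00 ± 0.31 at week 5 and 3.10 ± 0.24 at week 10 (log2, SD). The week 10 animals lay at 2.81, 3.04, 3.19 and 3.37, against a lowest of 2.60, a median of 2.70 and a highest of 3.13 in the week 2 animals. The groups overlapped, with 2 of the 4 week 10 animals above all week 2 animals. The mean was 0.33 higher at week 10 than at week 2, or 1.26-fold.

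Within batch 1 the mean difference at week 10 was 3.10, against 2.76 at week 2. Week 5 and week 2 could be set side by side in both batches: 3.16 against 2.76 within batch 1, and 2.78 against 2.81 within batch 2, with 2 arrays of each age in batch 2. The batch 2 arrays overlapped, at 2.68 and 2.88 at week 5 and 2.72 and 2.90 at week 2, so no direction can be read within batch 2. When each gene was given by the mean of its tested probe sets, the week 10 minus week 2 value was -0.026, and the lowest of the 5 means was that of week 3, at 2.54. That measure takes in 1425337_at and the dimmer pair of Slc12a2 probe sets.

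**Figure D3:**
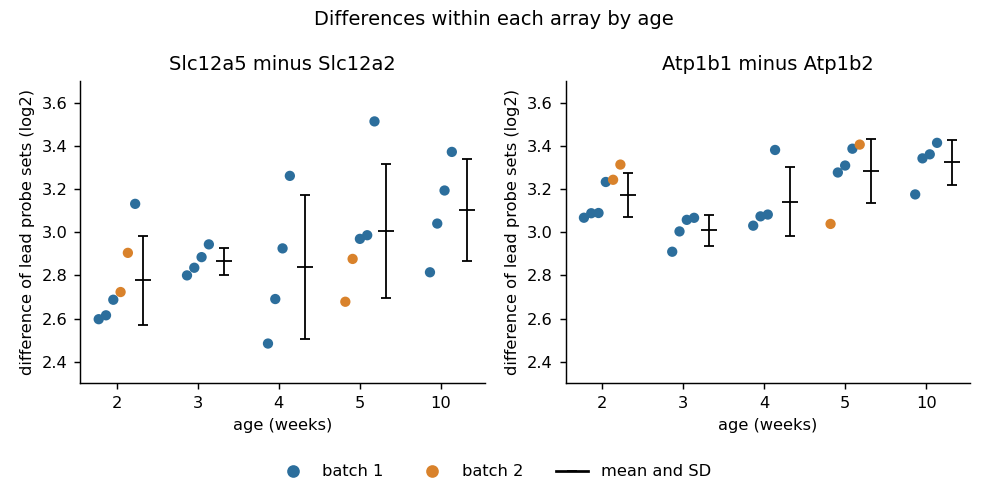
Differences between the lead probe sets of 2 genes on each array (y axis, log2) by age in weeks (x axis), Slc12a5 minus Slc12a2 on the left and Atp1b1 minus Atp1b2 on the right. Points are arrays coloured by batch, bars are mean and SD; for Slc12a5 minus Slc12a2 the means lie between 2.78 at week 2 and 3.10 at week 10, and the points of all ages overlap.

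Atp1b2, the glial beta subunit, was lower at week 10 than at week 2. Its lead probe set, 1435148_at, read 10.40, 10.45, 10.54 and 10.71 (log2 signal) in the week 10 animals, against a lowest of 10.71, a median of 10.82 and a highest of 10.84 in the week 2 animals. The groups did not overlap, though the highest week 10 animal (10.707) and the lowest week 2 animal (10.710) almost met, and 8.84% of all tested probe sets were lower with no overlap. The fitted change was -0.26 (SE 0.086, 95% confidence interval -0.44 to -0.08, adjusted p 0.0395, limma), so that the signal fell by 16.7%. On scan day 4 the week 10 array read 10.40 and the week 2 array 10.82.

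The Atp1b2 lead averaged 10.79 ± 0.06, 10.76 ± 0.06, 10.60 ± 0.17, 10.55 ± 0.13 and 10.53 ± 0.14 at weeks 2, 3, 4, 5 and 10 (SD). The order of the means followed age, and no step between neighbouring ages was called. The spread between animals was wider from week 4 on: the week 4 animals read 10.41, 10.50, 10.71 and 10.78, and the week 5 animals read 10.41, 10.47, 10.55, 10.61 and 10.74. Week 5 minus week 2 was -0.33 within batch 1 (adjusted p 0.0287) and -0.08 within batch 2 (adjusted p 0.818), and the difference between the batches was not called (adjusted p 0.474, limma). The F-test over ages gave an adjusted p of 0.0369.

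The call for Atp1b2 was close to the threshold. Centring each array on its median gave -0.22 (adjusted p 0.113), and a fixed term for scan day gave -0.26 (adjusted p 0.228, limma). Leaving out 1 of 7 arrays (week 2 animals 3, 4, 5 or 6 of batch 1, or week 10 animals 6, 7 or 8) gave adjusted p-values up to 0.118, while without the arrays of scan days 1 and 5 the change was -0.34 (adjusted p 0.00509, limma).

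Markers of astrocytes, which carry Atp1b2, were mixed. Of the 8 astrocyte markers, 3 were called lower and 1 higher at week 10 than at week 2, with a median log2 change of -0.26 against 0.01 over all genes, of which 18.5% were called. Gfap (-0.88, adjusted p 0.00149), Aldh1l1 (-0.34, adjusted p 0.0116) and Slc1a2 (-0.43, adjusted p 0.0203) were lower and Aldoc (0.46, adjusted p 8.17e-04, limma) was higher, while the fitted changes of Gja1 and Gjb6 were 0.01 and -0.0022. Their mean log2 level lay between 9.72 and 9.88 in the week 10 animals and between 9.93 and 10.13 in the week 2 animals. The mean level of the 4 measured oligodendrocyte precursor markers was 6.34 ± 0.18 at week 10 and 7.35 ± 0.10 at week 2 (SD, n = 4 and 6), with 3 of them called lower. Of the 6 endothelial markers 3 were called lower, with a median change of -0.47, and their mean level lay between 5.97 and 6.23 in the week 10 animals and between 6.33 and 6.65 in the week 2 animals. Whether any of these cells had a part in the Atp1b2 change was not tested. For the 6 neuron markers, beside which Slc12a5 can be set, 1 was called higher and 2 lower, and their mean level was 11.71 ± 0.25 at week 10 and 11.91 ± 0.13 at week 2 (SD). Snap25 was called higher (0.55, adjusted p 9.24e-04), and Tubb3 (-0.88, adjusted p 1.32e-04) and Nefl (-0.46, adjusted p 5.74e-05, limma) were called lower.

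The second Atp1b2 probe set, 1422009_at, was lower at week 10 as well, without passing the test. Its log2 signal was 8.29, 9.37, 9.76 and 9.85 in the week 10 animals, against a lowest of 9.52, a median of 10.31 and a highest of 10.55 in the week 2 animals. The change was -0.68 (95% confidence interval -1.31 to -0.04, adjusted p 0.136, limma), and -0.33 without week 10 animal 1 (adjusted p 0.474) or -0.37 without both arrays of that chip lot (adjusted p 0.380, limma). Its lowest mean stood at week 4 (8.99 ± 0.65, SD), where the actin difference was highest, and its slope on that difference was -1.46 (SE 0.38, adjusted p 0.0571, limma). Both Atp1b2 probe sets correlated at r = 0.19 over the 23 arrays (adjusted p 0.594 over 11 pairs, permutation; Spearman rho 0.25, adjusted p 0.587; r = 0.24 without the 2 farthest arrays).

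Atp1b1, the neuronal beta subunit, gave no called change at its lead probe set, 1423890_x_at, and different patterns among its probe sets. The lead read 13.79, 13.82, 13.88 and 13.90 (log2 signal) in the week 10 animals, against a lowest of 13.89, a median of 13.94 and a highest of 14.07 in the week 2 animals. The groups overlapped only between 13.89 and 13.90. The change was -0.10 (SE 0.075, 95% confidence interval -0.26 to 0.06, adjusted p 0.386, limma). The means were 13.96 ± 0.07, 13.77 ± 0.09, 13.74 ± 0.11, 13.84 ± 0.13 and 13.85 ± 0.05 at weeks 2, 3, 4, 5 and 10 (SD). Week 2 was highest, and week 3 minus week 2 was -0.18 (adjusted p 0.107, limma).

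The 4 tested Atp1b1 probe sets fell into 2 pairs. The lead and 1451152_a_at, which were designed from the same sequence, correlated at r = 0.89 over the 23 arrays, and 1418453_a_at and 1439036_a_at at r = 0.86 (permutation p 1e-05 and adjusted p 3.67e-05 for each, over 11 pairs). Spearman rho was 0.87 and 0.83 (adjusted p 3.67e-05 each), and without the 2 farthest arrays r was 0.85 and 0.79. Across the pairs, r lay between -0.07 and 0.28, with permutation p-values adjusted over the 11 pairs of 0.536 to 0.765. The permutations took no account of age or scan day.

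The second pair of Atp1b1 probe sets carried the called changes. At week 10 the log2 signal of 1418453_a_at was 12.06, 12.32, 12.34 and 12.34, against a lowest of 12.38, a median of 12.68 and a highest of 12.86 at week 2, with no overlap. Its change was -0.31 (SE 0.102, adjusted p 0.0408), and that of 1439036_a_at was -0.24 (adjusted p 0.145, limma). Week 4 against week 3 gave -0.57 for 1418453_a_at (adjusted p 0.0011) and -0.47 for 1439036_a_at (adjusted p 0.0115, limma), and all week 4 animals lay below all week 3 animals in both. Over all tested probe sets, 11.4% were called in this comparison and 9.0% were lower without overlap. Both steps lost their calls with random scan days (adjusted p 0.0704 and 0.0899 for 1418453_a_at, 0.239 and 0.256 for 1439036_a_at) and with days 6 and 7 as 1 term (0.556 and 0.674, limma). With the actin difference as a covariate these steps were -0.13 (adjusted p 0.865) and -0.05 (adjusted p 0.968), and the week 10 minus week 2 change of 1418453_a_at was -0.21 (adjusted p 0.0853, limma). Over all tested probe sets, the 1839 calls of week 4 against week 3 became 1 and 191 with random scan days replacing and beside batch. They became 2 with days 6 and 7 as 1 term and 0 with the actin covariate. The lost calls of these steps are thus not particular to this pair. The slopes on the actin difference were -0.49 and -0.46 for this pair (adjusted p 0.0534 and 0.112), against 0.18 and 0.16 for the lead and 1451152_a_at (adjusted p 0.416 and 0.505, limma). The week 10 call of 1418453_a_at was close to the threshold. It was lost on leaving out any 1 of 8 arrays (week 2 animal 1 of batch 2 or animals 5 or 6 of batch 1, week 5 animal 2 of batch 2 or animal 8 of batch 1, or week 10 animals 1, 6 or 8), with adjusted p-values of 0.0509 to 0.143 and changes of -0.33 to -0.24. The change furthest from the fit of all arrays was that without week 10 animal 1, which had an actin difference of 1.78. The fifth Atp1b1 probe set, 1455949_at, lay between 2.74 and 3.10 on all arrays and was not tested.

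The beta subunits were also set against each other as the Atp1b1 minus Atp1b2 difference of the leads. It averaged 3.17 ± 0.10, 3.01 ± 0.07, 3.14 ± 0.16, 3.28 ± 0.15 and 3.32 ± 0.10 at weeks 2, 3, 4, 5 and 10 (log2, SD). At week 10, 3 of the 4 animals lay above all week 2 animals, and the mean was 0.15 higher. Week 5 against week 2 was 3.32 against 3.12 within batch 1, and 3.22 against 3.28 within batch 2, with 2 arrays of each age in batch 2. The week 5 arrays of batch 2 read 3.04 (scan day 5) and 3.41 (scan day 7), on either side of its week 2 arrays (3.24 and 3.31, scan day 7). No direction can be read within batch 2. No member's probe set was called between weeks 5 and 4 or between weeks 10 and 5, comparisons in which 0.0745% and 0.0311% of all tested probe sets were called.

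**Figure D4:**
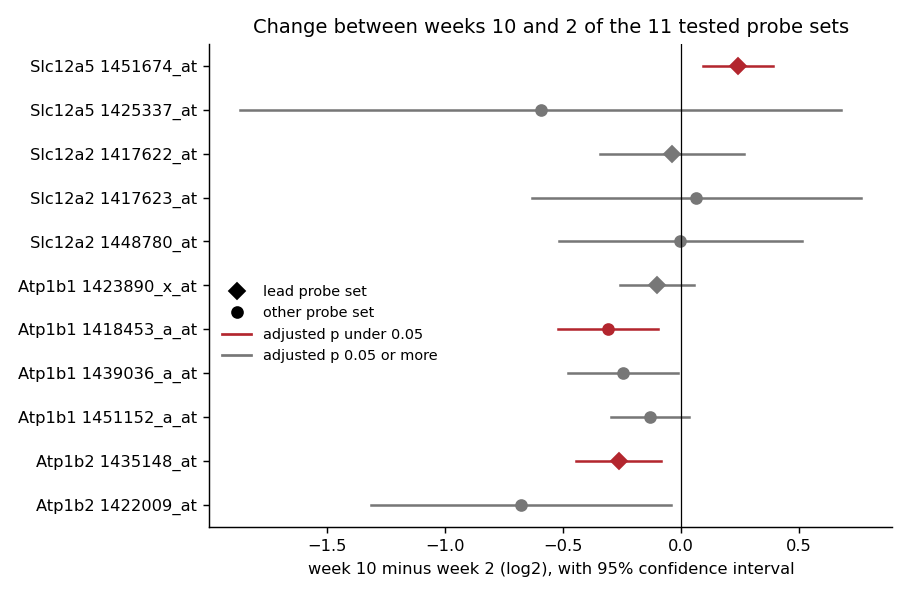
Fitted log2 change, week 10 minus week 2 (x axis), of the 11 tested probe sets (rows), with 95% confidence intervals from limma. Diamonds are lead probe sets and red marks an adjusted p under 0.05: the Slc12a5 lead at 0.24, the Atp1b2 lead at -0.26 and the Atp1b1 probe set 1418453_a_at at -0.31; the widest interval is that of Slc12a5 1425337_at.

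The wider cation chloride cotransporter family had 6 tested genes, of which Slc12a5 was called higher and Slc12a4 (KCC1, a potassium chloride exporter found in many tissues) lower at week 10 than at week 2, where 18.5% of all genes were called by their lead probe sets, 7.12% as higher and 11.4% as lower. Slc12a4 averaged 5.94 ± 0.18 at week 10 and 6.36 ± 0.10 at week 2 (SD), a change of -0.41 (adjusted p 0.0129, limma). No gene of the family was called lower with fixed scan days, with animal number as a block or without scan days 1 and 5. The median change of the family was 0.08. Among 17 tested kinases and partners of the cotransporters, 3 were called higher and 1 lower, with a median of 0.09. Only 1 was called higher with week 2 animal 5 in batch 2, without the 2 arrays of the other chip lot, with the actin covariate or without scan days 1 and 5, and none lower with fixed scan days. Cab39l (MO25 beta, an adaptor that activates the kinases SPAK and OSR1) changed by 0.46 (adjusted p 0.00449), Rest (a repressor of neuronal genes) by 0.43 (adjusted p 0.0267) and Wnk1 (a chloride-sensing kinase upstream of SPAK and OSR1) by 0.34 (adjusted p 0.0496, limma). Rest was faint, with a mean log2 signal of 4.53 over the 23 arrays, near the filter value of 4. Its SD was 0.41 at week 10, against 0.14 at week 2. The animals of weeks 10 and 2 overlapped for Rest and Wnk1, but not for Cab39l. Arhgef7 (beta-PIX, an exchange factor for Rac and Cdc42) changed by -0.69 (adjusted p 0.001, limma). The kinase genes themselves were not called: Stk39 (SPAK) changed by 0.09 (adjusted p 0.630) and Oxsr1 (OSR1) by 0.35 (adjusted p 0.0909, limma). Usf1 and Usf2, factors that bind E-boxes, were not called in this comparison (-0.24, adjusted p 0.449, and 0.14, adjusted p 0.442, limma). In week 3 against week 2, Usf1 was called lower (-0.72, adjusted p 0.0183) and Usf2 higher (0.35, adjusted p 0.0419, limma). There 15.2% of all genes were called by their lead probe sets, and age and scan day cannot be told apart.

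Of the 10 tested pump subunits and FXYD regulators, which are small membrane proteins that tune the pump, none was called higher and 3 were called lower at week 10 than at week 2, with a median of -0.03. These were Atp1b2, Fxyd7 and Fxyd6. Fxyd7, a brain-specific regulator, averaged 9.06 ± 0.70 at week 10 and 10.50 ± 0.22 at week 2 (SD), a change of -1.34 (SE 0.233, adjusted p 3.72e-04, limma). Fxyd6 averaged 9.10 ± 0.23 at week 10 and 9.90 ± 0.25 at week 2, a change of -0.82 (SE 0.153, adjusted p 7.56e-04, limma). The animals of weeks 10 and 2 did not overlap in either regulator, as in 14.7% of all tested probe sets (8.84% lower without overlap). Atp1b3, which encodes another beta subunit, changed by 0.12 (adjusted p 0.346, limma). When each array was centred on its median, 1 gene of this list was called higher and 2 lower.

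Among 19 tested chloride channels and bicarbonate transporters, none was called higher and 3 were called lower, with a median of -0.07. They were Slc26a6 (an anion exchanger, -0.84, adjusted p 0.00641), Clic1 (an intracellular chloride channel protein, -0.53, adjusted p 0.0344) and Ttyh1 (a Tweety family protein of glia, -0.39, adjusted p 0.00724, limma). Slc26a6 was faint, at 4.11 ± 0.44 at week 10 and 4.88 ± 0.45 at week 2 (SD). Under median centring, 1 gene of this list was called higher and 2 lower, and the 3 lower calls became 1 with fixed scan days and 0 with animal number as a block. Of 10 carbonic anhydrases and proton exchangers, Car2 was called higher and Car8 lower, with a median of 0.15. Car2, a cytosolic carbonic anhydrase abundant in oligodendrocytes, averaged 10.70 ± 0.16 at week 10 and 9.68 ± 0.25 at week 2, a change of 0.96 (adjusted p 8.46e-06, limma). Of the 5 tested oligodendrocyte markers none was called between these ages, with a median log2 change of -0.40. Car8, a relative without carbonic anhydrase activity, changed by -0.76 (adjusted p 0.0193, limma). No gene of the carbonic anhydrase and proton exchanger list was called lower with fixed scan days. Among 5 other P-type pumps none was called, with a median of -0.04: Atp2a2, the calcium pump of the endoplasmic reticulum, changed by -0.06 (adjusted p 0.654), and Atp2b2, a plasma membrane calcium pump, by 0.05 (adjusted p 0.704, limma). In each list, the share called can be set beside the 18.5% over all genes.

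**Figure D5:**
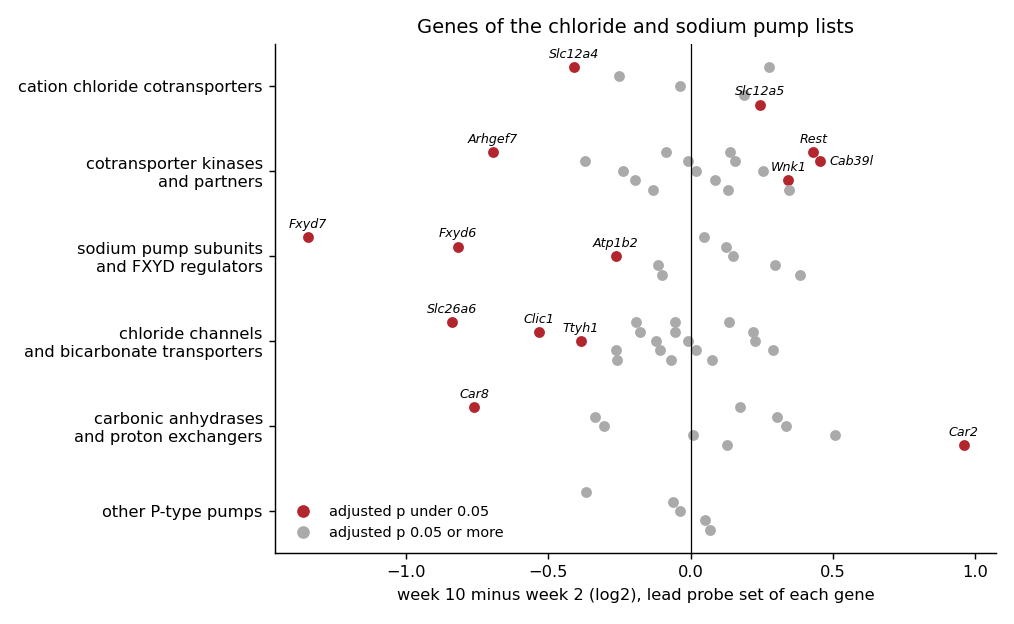
Log2 change, week 10 minus week 2 (x axis), of the lead probe set of each tested gene in 6 lists (rows; points are spread vertically for legibility only). Named red points have an adjusted p under 0.05 (limma); the most negative is Fxyd7 at -1.34 and the most positive Car2 at 0.96.

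The genes most alike in pattern to each lead over the 23 arrays, out of 9196 others, were found by Pearson correlation and are given as a description, since all arrays share scan days and normalisation. For Slc12a5 they were Igfbp6 (r = 0.91), Snap25 (r = 0.91) and Oxr1 (r = 0.91). Snap25, the only neuron marker called higher at week 10 than at week 2, encodes a neuronal protein of vesicle fusion. For Slc12a2 they were Tmbim1 (r = 0.87), Pdlim2 (r = 0.81) and Tmem98 (r = 0.79). For Atp1b1 they were Timm22 (r = 0.83), Atp5a1 (r = 0.80) and Slc25a3 (r = 0.80), all 3 of which encode mitochondrial proteins. For Atp1b2 they were Sparc (r = 0.85), a secreted matrix protein of glia and vessels, Naa60 (r = 0.84) and Pigc (r = 0.83).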

How the data were processed

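The deposited table held log2 values of 22690 Affymetrix MOE430A probe sets on 23 arrays. Per the submitters' processing notes, the authors used GCRMA, which corrects background and normalises quantiles between arrays; its version is not given in the sources used here. The log2 values were used as deposited. Array medians lay between 6.15 and 6.27; precision is limited by the number of arrays, which hold no counts.

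Age and batch came from the titles. The title of week 2 animal 5 says batch 1 while its description says batch 2; batch 1 was used. Week 5 animal 2 occurs in both batches and was counted as 2 animals (r = 0.9922 between the arrays). Scan day came from the scanner records. Symbols came from the platform table, updated through Entrez identifiers to GRCm38.p6 (20364 of 20393 probe sets with 1 symbol matched).

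Probe sets with a log2 value of at least 4 on at least 4 arrays, 16103 in all for 9198 genes, were fitted in R 4.3.3 by limma 3.58.1 with a mean per age plus batch, and tested two-sided after lmFit by eBayes. P-values were Benjamini-Hochberg adjusted over all tested probe sets, and an adjusted p under 0.05 was called. Code was tested on simulated data. Correlations used 100000 two-sided permutations in Python 3.11.15. No p was computed for differences between 2 genes. Each gene of a list was given by its lead probe set. Named were the members, up to 6 called genes of each list (the 2 brightest where none was called) and the 3 genes most alike to each member; Stk39, Oxsr1, Usf1, Usf2 and Atp1b3 were added after their values were seen. The members and lists were chosen with earlier results of these data known.

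Alternatives covered batch, scan day, normalisation, filters, limma settings, array weights, the actin difference as a covariate, the mean of a gene's probe sets and leaving out each array. Leaving out scan days 1 and 5 and the slope on the actin difference were added after seeing the data.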

Additional observations from a re-analysis of the deposited data

Results flagged for a closer look

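Dixon's test was applied to 65 groups of 4 to 6 arrays, and 6 values stood apart from the rest of their age group; chance alone flags about 1 in 20 groups.

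For Slc12a5 probe set 1425337_at, week 10 animal 1 read 6.15, against 9.71 to 9.83 in the other week 10 animals, and week 5 batch 1 animal 2 read 7.58, against 9.54 to 10.06 in the other week 5 animals. For Atp1b1 probe set 1418453_a_at, week 10 animal 1 read 12.06, against 12.32 to 12.34 in the others of its age. These values come from the 2 arrays of scan day 1, whose actin differences were 1.78 (week 10 animal 1) and 1.69 (week 5 batch 1 animal 2). The part of scan day, chip lot or RNA quality in these values was not tested, and the 3 cannot be told apart on these arrays.

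For the Atp1b1 lead, week 4 animal 6 read 13.58, against 13.79 to 13.81 in the other week 4 animals. For Atp1b1 probe set 1439036_a_at, week 2 batch 1 animal 4 read 13.55, against 13.76 to 13.84 in the others. The Atp1b1 minus Atp1b2 difference of week 4 animal 3 was 3.38, against 3.03 to 3.08 in the other week 4 animals.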

How the results depend on the processing

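No called change of a single probe set of the members turned in sign under the alternatives run, and of 1842 pairs of values not called in either fit, 130 differed in sign. The Slc12a5 change of week 10 against week 2 (0.24) was 0.21 in batch 1 alone and 0.34 with fixed scan days and no week 3, neither called, and -0.18 (not called) with the mean of its probe sets; leaving out 1 array gave 0.20 (without week 10 animal 8) to 0.28 (without week 10 animal 1). The Atp1b1 change (-0.10) became a call at -0.20 with the mean of its probe sets. The Atp1b2 change (-0.26) was no longer called at -0.26 with week 2 animal 5 in batch 2, -0.25 and -0.24 with random scan days replacing and beside batch, -0.26 with fixed scan days, -0.26 without week 3, -0.22 after median centring and -0.23 after a second quantile normalisation; leaving out 1 array gave -0.32 to -0.22. The labels do not say that animal numbers mark pairs across ages; with them as a replicate block the Atp1b2 change was -0.20 (adjusted p 0.159, limma) and 1422009_at became a call at -0.86 (adjusted p 0.0457). The change of 1418453_a_at (-0.31) was no longer called at -0.29 with week 2 animal 5 in batch 2, -0.28 in batch 1 alone, -0.43 with fixed scan days, -0.25 without the other chip lot, -0.31 without week 3, -0.26 after median centring, -0.30 after a second quantile normalisation, -0.21 with the actin covariate and -0.24 without scan days 1 and 5. The Slc12a5 minus Slc12a2 change (0.33) was -0.026 and the Atp1b1 minus Atp1b2 change (0.15) was 0.32 with the mean of the probe sets. Unlike the fitted changes, these values between 2 genes are differences of plain age means, with no batch term.

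The 2748 probe sets called in week 10 against week 2 were 1523 with scan day fixed, and the 1031 higher and 1717 lower became 1388 and 1340 after median centring and 1473 and 1398 after quantile normalisation. For week 3 against week 2, 2570 calls became 112 and 597 with random scan days replacing and beside batch, 1158 with days 6 and 7 as 1 term and 4212 with array weights. For week 4 against week 3, 1839 calls became 1 and 191, 2 and 3678 under the same settings and 0 with the actin covariate, leaving out 1 array gave 1219 to 2115, and 784 higher and 1055 lower became 1440 and 948 after median centring. For week 5 against week 4, 12 calls became 6 without a batch term, 2 with week 2 animal 5 in batch 2, 369 in batch 1 alone, 0 with random or fixed scan days, 20 with days 6 and 7 as 1 term, 2 without week 3, 3 with the replicate block, 835 with array weights and 0 with the actin covariate, and leaving out 1 array gave 2 to 303. For week 10 against week 5, 5 calls became 16 with random scan days replacing batch, 1 without the other chip lot, 2 with the replicate block, 9 with the actin covariate and 1 without scan days 1 and 5, and leaving out 1 array gave 3 to 9. The causes were not tested. Age and scan day cannot be told apart at week 3, and Atp1b1 probe set 1455949_at was too dim to test.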
